A study of Mus musculus with 134 samples.

Results

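The replication-dependent histone genes were followed through every expression library of a mouse study that developed SET-seq, an assay that reads RNA and a histone mark from the same cells. The members were all genes whose symbol begins with Hist1h to Hist4h or is one of the newer cluster names (H1f1 to H1f5, H2ac, H2bc, H3c and H4c with a number). The names selected 64 of the 25209 genes in the bulk count tables: 5 genes of linker histone H1, 18 of H2A, 17 of H2B, 12 of H3 and 12 of H4. Of these, 54 lay on chromosome 13 and 10 on chromosome 3. The choice went by name alone, although earlier results of these data were known when it was made. The single-cell tables listed 52 members among 17622 genes for the cells assayed with an H3K27me3 antibody and 60 among 17142 genes for those assayed with an H3K4me3 antibody. All of these single cells had been kept with Wnt3a beads for 12 h.

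Replication-dependent histone genes make the bulk of the nucleosome proteins during S phase. Copies of H2A, H2B, H3 and H4 form the core of a nucleosome, and H1 binds the linker DNA. Their mRNAs are unusual in animals because most of them carry no poly-A tail. The transcript ends instead in a short stem-loop that is bound by Slbp, the stem-loop binding protein, and is cut by a complex containing the U7 small nuclear RNA. Oligo-dT primers anneal to runs of A, so the level that an oligo-dT library gives for these genes is a readout of what the primer and the library chemistry captured as well as of the RNA present. Replication-independent histones such as H3f3a, H3f3b and H2az1 are encoded elsewhere and are polyadenylated.

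All bulk libraries were labelled as mouse embryonic stem cells of the line ES-E14TG2a, in 27 conditions of 2 libraries each (54 libraries). The in vitro libraries were made from total RNA: after priming with oligo-dT, the RNA/cDNA hybrid was cut directly by Tn5, the transposase that inserts sequencing adapters (tagmentation). They varied the Tn5 amount (25, 50 or 100 ng/ul), the RNA input (300 ng, 3 ng or 30 pg) or the temperature (16 or 37 °C) and time (5, 10, 15 or 30 min) of tagmentation. SET-seq used the cytoplasmic RNA released before antibody binding, primed and tagmentated in the same way, from 10, 100, 1000 or 10000 cells without an antibody and from 100, 1000 or 10000 cells assayed with H3K4me3 or H3K27me3. A pair of ligation-based libraries was made by oligo-dT selection of mRNA, fragmentation and random priming. KO1 and KO2 were clones with the Polycomb accessory gene Aebp2 knocked out, each a single clone in 2 SET-seq libraries with H3K27me3, and the other groups carried no stated mutation. Nothing in the labels ties the 2 libraries of a condition to separate cultures throughout, so a p-value here measures the spread between these libraries, which may be technical. In bulk libraries a lower share of cells in S phase and less histone mRNA per cell cannot be told apart.

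Total counts ran from 235040 to 21520982 per library. The ribosomal RNA gene Rn45s took 1.55% to 84.6% of them and was left out, so levels are CPM taken over the counts outside Rn45s. They are divided by exon length (CPM per kb) where members are ranked or set beside sequence features. Sums, shares of the classes and of H2ac8, and the leading member of each class use CPM without regard to exon length. The 8 stem cell markers (such as Pou5f1, Nanog and Zfp42) summed to 2095 to 5526 CPM, and of these only Sox2 was at 0 in any library, in 1. The 5 fibroblast markers (such as Col1a1, Col3a1 and Thy1) summed to 0 to 28.8 CPM, the 4 of primitive endoderm to 1.38 to 37.1, the 3 neural ones to 0 to 110.1 and the 3 of mesoderm to 0 to 111.3. Hprt, a purine salvage gene that is defective in ES-E14TG2a, did not exceed 1.29 CPM in the in vitro libraries or 2.14 CPM in the KO clones, but reached 66.2 to 485 CPM in the SET-seq libraries of unmodified cells, antibody or not, and 181 to 184 CPM in the ligation-based libraries. The cell stock therefore cannot be told apart from the assay in SET-seq or ligation against in vitro, nor from the genotype in KO against wild type.

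Since oligo-dT anneals to A and these transcripts end at the stem-loop, the 3' ends of 4 members with large differences between library types are shown. Coordinates are those of the count tables, on NCBIM37 (the build of mm9), and capitals mark the histone stem-loop of 16 bases. All 4 genes have 1 exon, and the stem-loop lies 3' of the reading frame, 4 or 5 bases before the annotated end.
H2ac8, chr13:23662532-23663089, minus strand: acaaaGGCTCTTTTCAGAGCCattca
H3c3, chr13:23836911-23837390, minus strand: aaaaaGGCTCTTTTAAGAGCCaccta
H2ac10, chr13:23625744-23626247, plus strand: ccaaaGGCTCTTTTCAGAGCCaccac
H4c14, chr3:96066857-96067240, minus strand: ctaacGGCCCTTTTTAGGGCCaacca

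The members differed in the A tracts next to this element. In the next stretches the capitals mark the longest run of A in the exon, which is 3' of the reading frame in H2ac8, H3c3 and H2ac10 and inside it in H1f5. The run of 8 A in H2ac8 lies at chr13:23662557-23662564, just 5' of its stem-loop, and the run of 7 A in H3c3, at chr13:23836932-23836938, abuts it. H2ac10 had 4 A at chr13:23626218-23626221. H1f5 had 6 A at chr13:21872343-21872348.
H2ac8: ctaatctcgtAAAAAAAAcaaaggctct
H3c3: tatgctatttAAAAAAAggctctttta
H2ac10: ttttttttaaacAAAAcccaaaggctct
H1f5: agaagacaacgAAAAAAgctggcgcggc

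A match to the histone stem-loop consensus, searched on the transcribed strand over the gene and 300 bases past its annotated end, was found in 61 members. The annotation ended within 100 bases of it in 55 and ran on past it in 6 (H2bc4, H2bc6, H3c6, Hist1h2bp, Hist1h2bq and Hist1h2br), while H2bc21, Hist1h2al and Hist1h2an had no match. In a window of 400 bases around the annotated end, 55 of the 64 members held a match against 1 of 1969 other genes on the same chromosomes, or 0.0508%. The members were short and GC-rich: 59 had 1 exon, the median exon length was 494.5 bases against 2495 in the other genes, and median GC was 60.6% against 46.7%. The median longest run of A was 4 in members and 6 in the other genes.

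Many members are near-identical copies, and reads that fit several places were not counted. In 23 members fewer than 50% of the 100-base windows of the exons occurred once in the genome, in 6 members none did, and in 7, including H1f1, H1f5, H4c4, H4c14, H2bc18 and H2bc21, all did. H2ac8 had 59.5% unique windows, H3c3 60.4%, H2ac10 51.6% and H4c14 100%. Levels of members with few unique windows are uncertain. The 7 members without a single count in 54 libraries (H2ac18, H2ac19, H3c14, H3c15, Hist1h2ap, Hist1h2bq and Hist1h2br) were all annotated at 2 places and shared most or all exon bases with another gene, where reads name 2 genes and were dropped. The overlap was complete in 5 of them, 1112 of 1192 exon bases in H2ac19 and 1298 of 1328 in H3c14. Only H1f5 had a count in every library.

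H2ac8 made up much of the signal. This H2A gene averaged 289.5 CPM per kb over the 54 libraries and held 35.5% of the CPM of all members. It was followed by the H2A gene H2ac10 at 63.6 CPM per kb, the linker histone genes H1f4 and H1f5 at 54.6 and 43.7, and H4c4 at 36.6. H2bc4, H3c3, H4c14, H1f2 and H2ac15 followed with 18.4 to 25.3 CPM per kb. H1f4, H2ac8, H2bc4, H3c3 and H4c4 had the highest mean CPM of their classes. The order was not constant: H2ac8 was highest throughout the in vitro libraries of temperature and time, whereas in the ligation-based libraries H2bc4 was above it in both.

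**Figure D1:**
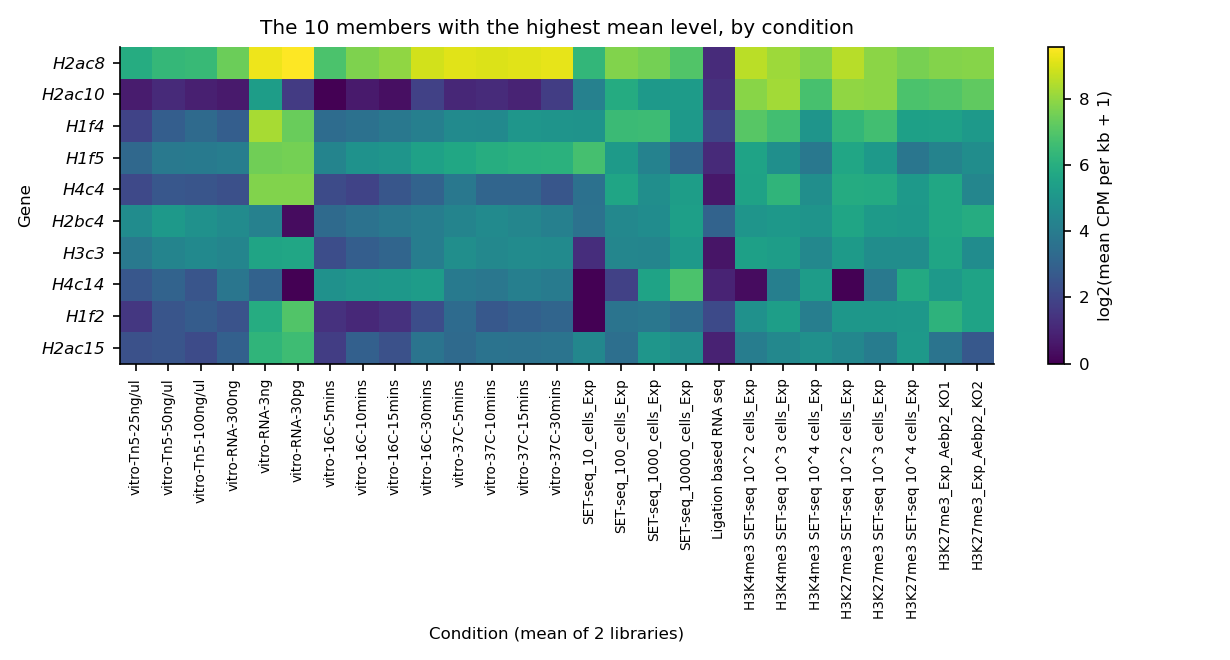
Heat map of the 10 members with the highest mean level (rows) in the 27 conditions (columns), coloured by log2 of the mean CPM per kb plus 1 over 2 libraries. H2ac8 is bright in nearly all columns and dark in the ligation-based one, H2ac10 is dark in vitro except at 3 ng and bright in SET-seq, and H4c14 is dark at low cell numbers.

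The summed level of the members differed widely between library types. The ligation-based libraries had 25.7 and 26.97 CPM, from 361 and 375 counts. In vitro libraries tagmentated at 37 °C for 5 min had 489.9 and 445.5 CPM, those from 300 ng RNA had 210.4 and 175.7 CPM, and SET-seq of 10000 cells had 452.5 and 359.8 CPM. The lowest library of any other type, 1 of those with 25 ng/ul Tn5, had 65.8 CPM, so the ligation-based libraries were below all of the other 52. The highest sums, 1104 to 1341 CPM, came from the 3 ng and 30 pg libraries.

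**Figure D2:**
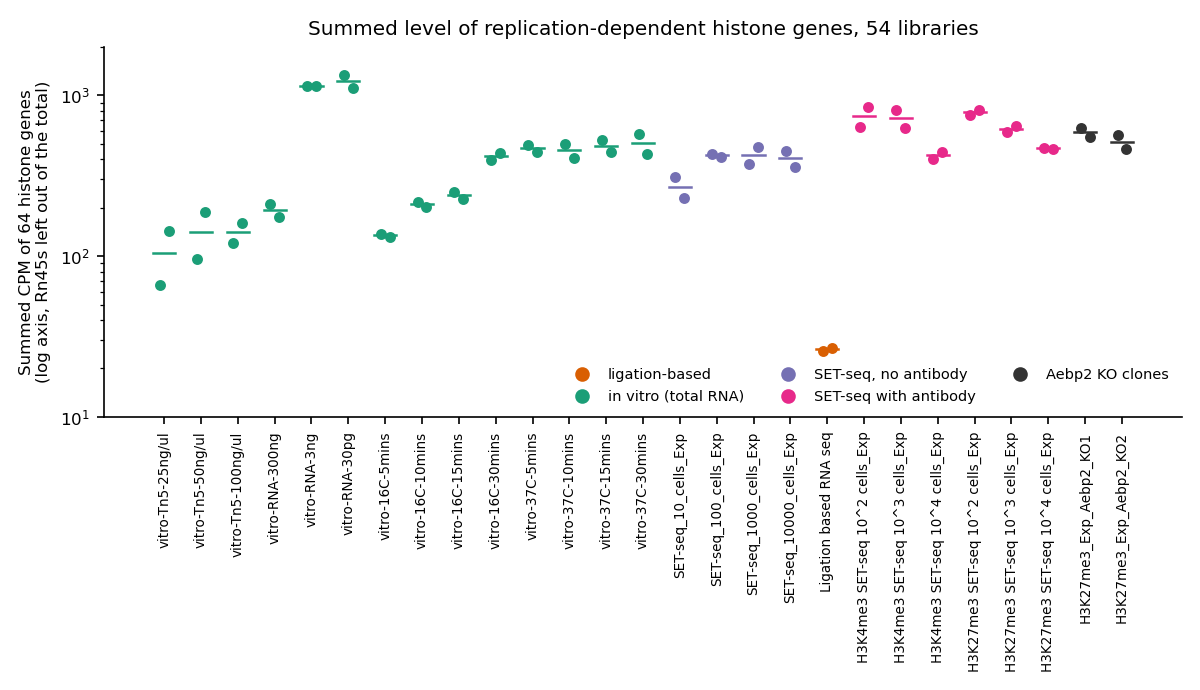
Summed CPM of the 64 members (log axis, Rn45s left out of the total) in each of the 54 libraries; points are libraries, bars are means of 2, and colour gives the library type. Ligation-based libraries sit at 25.7 and 26.97, the 3 ng and 30 pg libraries between 1104 and 1341, and the 16 °C libraries climb from 131 to 440 with time.

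The classes contributed unequally. H2A genes made up 68.8% and 70.9% of the members' CPM in the 37 °C, 5 min libraries and 52.1% and 54.6% in the 300 ng libraries. In SET-seq of 10000 cells the H2A share was 26.5% and 31.3%, with H3 genes at 21.6% and 22.0% and H4 genes at 22.6% and 19.4%. Ligation-based libraries were led by H1 genes, 36.8% and 34.1%, and H2B genes, 34.6% and 33.9%, and H2ac8 held only 2.77% and 2.67% there against 66.7% to 67.9% at 37 °C for 5 min. In none of these shares did the 2 libraries of a type overlap those of SET-seq.

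The first comparison asked whether libraries that select poly-A RNA and then prime at random recover these genes as libraries do in which oligo-dT primes reverse transcription. Members were lower in the ligation-based libraries in every class. Of 33 members that passed the count filter, 19 were lower than in the 4 in vitro libraries (37 °C for 5 min and 300 ng) and none was higher, by edgeR's quasi-likelihood test with Benjamini-Hochberg adjustment over 12631 genes, where 67.1% of all genes were called, 29.6% lower and 37.4% higher. The median log2 fold change was -2.85 over the members tested and 0.17 over all genes. A further 31 members did not pass the filter, and a member that passed only through the group in which it was high had to differ.

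H2ac8 showed the largest difference. It had 332.8 and 297.0 CPM at 37 °C for 5 min and 105.6 and 82.3 CPM with 300 ng, against 0.711 and 0.719 CPM, 10 counts each, after ligation. The groups did not overlap, and log2 fold change was -8.11 (SE 0.259, adjusted p = 3.67e-11). The H3 gene H3c3 had 15.4, 9.28, 8.18 and 10.2 CPM in vitro and 0.142 and 0.288 CPM after ligation, a log2 fold change of -5.79 (SE 0.449, adjusted p = 5.83e-08).

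H3c11 (-5.47, SE 1.14, adjusted p = 6.34e-04) and H1f5 (-4.76, SE 0.274, adjusted p = 4.25e-09) were the next largest on the log2 scale, and H3c11 had 0 and 1 counts after ligation. Among the other leading members, H4c4 (-4.07), H4c14 (-4.04), H2ac15 (-3.34), H1f4 (-2.24), H2bc4 (-1.76) and H1f2 (-1.14) were all lower by the same test. Leaving out 1 library kept the call of H1f2 in 5 of 8 fits and that of H4c4 in 6 of 8, with H4c4 between -7.42 and -3.04. H2ac10 had 1.10, 0, 0.195 and 0.426 CPM in vitro and 0.853 and 0.647 CPM after ligation. Those ranges overlapped, and its log2 fold change of 0.43 (SE 0.839, adjusted p = 0.66) did not pass. By class, 4 of 5 H1, 3 of 5 H2A, 3 of 7 H2B, 5 of 9 H3 and 4 of 7 H4 genes tested were lower.

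Polyadenylated histone genes moved less uniformly. Of 11 replication-independent histones, 7 were lower and 2 higher after ligation (median log2 fold change -1.82), with H3f3a at -2.14 and H2ax at -1.73, while H1f0 was at 1.44, all 3 past the test. H2ax, a DNA damage response histone, is known to make both a stem-loop and a polyadenylated mRNA. H2az1 (0.33, adjusted p = 0.455) and H3f3b (0.32, adjusted p = 0.11) did not pass. Among 24 histone mRNA factors, 11 were higher and 7 lower, with Slbp at -0.26 (adjusted p = 0.262), and among 47 DNA replication genes 17 were higher and 12 lower, with Pcna, the replication clamp, at 0.10 (adjusted p = 0.552). Chemistry, sequencing platform, RNA handling and cell stock all changed between these libraries and cannot be told apart.

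The length of the A tract was set beside the levels across members, and its part in them was not tested. Over the 57 members with a count, Spearman's rho between the longest A run and the level was 0.04 in vitro and -0.11 in the ligation-based libraries in CPM per kb, as a description over genes that share libraries and sequence. The 8 members with a run of 6 or more had a median of 8.74 CPM per kb in vitro, those with a run of 5 (15 members) 1.35 and those with 3 or 4 (34 members) 1.22. In the ligation-based libraries the 3 medians were 0.299, 0.479 and 0.338. The first set held H2ac8, H1f4, H1f5 and H3c3, but also H2bc6 at 0.309 CPM per kb in vitro. Its lowest value in vitro, 0, was that of Hist1h2ao, in which 0% of the windows were unique, so that level is uncertain.

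SET-seq was then set against the in vitro libraries, that is cytoplasmic RNA against total RNA under the same priming and tagmentation. Most members tested were higher in SET-seq. Of 33 tested, 26 were higher and 2 lower by edgeR's quasi-likelihood test with Benjamini-Hochberg adjustment, against 31.8% and 24.4% of all genes (56.2% together), with median log2 fold change 2.11 in members and 0.15 in all genes. By class, 9 of 9 H3, 7 of 7 H4, 4 of 7 H2B, 3 of 5 H2A and 3 of 5 H1 genes tested were higher. These tallies include members that were near 0 in vitro and passed the filter through SET-seq, which had to differ, so they do not speak for the classes. This comparison shares its in vitro libraries with the previous one and its SET-seq libraries with the next.

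H2ac10 went from 1.10, 0, 0.195 and 0.426 CPM in vitro to 20.9 and 16.1 CPM in SET-seq, with no overlap and log2 fold change 5.40 (SE 0.454, adjusted p = 2.76e-07). H4c14, an H4 gene on chromosome 3 with wholly unique sequence, went from 5.49, 5.30, 3.90 and 5.69 CPM to 52.1 and 36.6 CPM (3.22, SE 0.280, adjusted p = 3.63e-07). H2bc18 (6.64, SE 0.979, adjusted p = 6.36e-05), H3c4 (5.52, SE 1.25, adjusted p = 1.97e-03) and H4c12 (5.14, SE 1.23, adjusted p = 2.80e-03) had the other top log2 fold changes. Those 3, with H4c8 and Hist1h2al, had no count at 37 °C for 5 min, and their fitted values depend on the prior count. With 3 counts as a floor over that pair of libraries, H2bc18 was at least 9.01-fold, H3c4 at least 4.15-fold and H4c12 at least 3.13-fold higher, and the median of the 33 members was 1.72 in place of 2.11.

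H1f5 and H2ac8 went the other way. H1f5 had 41.7, 38.5, 10.9 and 13.9 CPM in vitro and 5.10 and 6.77 CPM in SET-seq, below all 4 (-1.83 on the log2 scale, SE 0.241, adjusted p = 1.75e-05). H2ac8 had 65.5 and 74.2 CPM in SET-seq, also below all 4 in vitro libraries (-1.19, SE 0.160, adjusted p = 1.99e-05). The linker gene H1f4 was higher (1.72, adjusted p = 1.24e-04), as were H4c4 (2.42), H2ac15 (1.87), H2bc4 (1.13) and H3c3 (0.75), whereas H1f2 (0.65, adjusted p = 0.12) did not pass. H3c3 kept its call in 6 of 8 fits that left out 1 library, and with the 4 SET-seq libraries of 10000 cells that had an antibody it was at -0.15 (adjusted p = 0.634).

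The in vitro side was itself uneven. H2ac8 was 105.6 and 82.3 CPM with 300 ng but 332.8 and 297.0 CPM in the 37 °C, 5 min libraries, although both were tagmentated at the same temperature and time, and Rn45s took 17.4% to 18.3% of counts in the first and 33.0% to 36.0% in the second. Of the comparators, Slbp (-1.32), H2ax (-1.04) and H1f0 (-0.82) were lower in SET-seq, while H2az1 (0.40), H3f3a (0.08), H3f3b (0.09) and Pcna (0.27) did not pass. Of the 11 replication-independent histones none was higher and 6 were lower.

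SET-seq was above the ligation-based libraries for all 33 members tested, against 34.2% of all genes higher and 35% lower, or 69.2% called. Of the 33, 27 were under 1 CPM in both ligation-based libraries, and such members entered the test through the groups in which they were high, so the count was largely set by the filter. Without a filter 44 of 56 members were called. The median log2 fold change was 4.85 in the members tested and -0.00 over all genes. H3c11 (8.25, SE 0.661, adjusted p = 9.00e-08), H4c14 (7.26, SE 0.375, adjusted p = 2.36e-09), H3c7 (7.03, SE 0.582, adjusted p = 1.21e-07) and H2ac8 (6.92, SE 0.264, adjusted p = 1.42e-10) differed most. The smallest of the leading members was H1f2, with 7.74 and 5.71 CPM against 2.35 and 2.66 CPM (1.80, SE 0.331, adjusted p = 2.13e-04). Of the comparators, H3f3a was at 2.23 and H2ax at 0.69, Slbp at -1.07 and H1f0 at -2.26, and H2az1, H3f3b and Pcna did not pass.

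**Figure D3:**
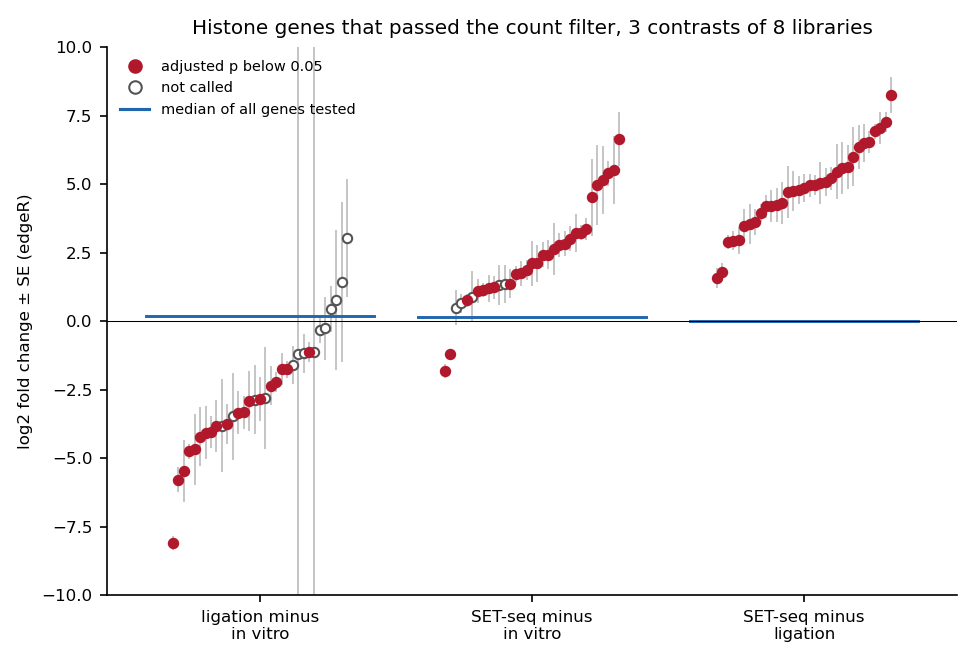
Log2 fold change with SE of the 33 histone genes that passed the count filter, ordered by size, in 3 contrasts of the same 8 libraries; filled points passed an adjusted p of 0.05 and the lines give the median of all genes tested. None of the members called after ligation is above 0, and all 33 in SET-seq against ligation are; the error bars of H4c12 and Hist1h2al in the first contrast run past the axis.

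Reaction temperature was tested within times in 16 in vitro libraries. Within this set, histone genes were mostly higher at 37 °C than at 16 °C. Of 20 members tested, 11 were higher and 1 lower by edgeR's quasi-likelihood test with Benjamini-Hochberg adjustment, where 63.4% of all genes were called, 32% higher and 31.4% lower, and the median log2 fold change was 0.89 in members and -0.00 in all genes. H1f2 (1.99, SE 0.319, adjusted p = 3.62e-06), H3c3 (1.59, SE 0.251, adjusted p = 2.98e-06), H2ac8 (1.28, SE 0.162, adjusted p = 7.38e-08) and H1f4 (1.18, SE 0.122, adjusted p = 1.74e-09) rose most. Of the 5 H1 genes tested, 4 were called higher, and all 5 had a log2 fold change above 0. H4c14 fell by 1.10 on the log2 scale (SE 0.162, adjusted p = 9.21e-07), from 8.76 to 17.7 CPM in the 8 libraries at 16 °C to 4.47 to 6.87 CPM in the 8 at 37 °C, without overlap.

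The replication-independent histones were also mostly higher, and the DNA replication genes were not. Of 11 replication-independent histones, 9 were higher and 1 lower at 37 °C, among them H2az1 (1.01), H1f0 (0.87), H3f3b (0.57) and H2ax (0.51). Slbp was higher by 0.98, while H3f3a (0.15, adjusted p = 0.0561) and Pcna (-0.04, adjusted p = 0.652) did not pass. Histone mRNA factors were higher in 14 of 24 and lower in 2, and DNA replication genes split into 19 higher and 18 lower. Rn45s was higher as well, at 33% to 40.7% of counts against 11.8% to 25.1%, and its part in the result was not tested. With the 5 min libraries alone, 10 members were tested and 6 rose.

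At 16 °C the members rose with reaction time, and at 37 °C they were near their top already at 5 min. The summed level at 16 °C was 138 and 131 CPM at 5 min, 217.6 and 203.2 at 10 min, 251.6 and 227.6 at 15 min and 396.9 and 439.8 at 30 min. No time overlapped the next. At 37 °C the sums were 489.9 and 445.5, 500.4 and 410.5, 530.3 and 441.3, and 577.2 and 434.4 CPM, and all 4 times overlapped. The 300 ng libraries were also tagmentated at 37 °C for 5 min, but summed to 210.4 and 175.7 CPM. Those sums lie within the range of the 16 °C libraries, so the level at 37 °C did not carry over to that set. The difference between the sets was not tested.

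H2ac8 carried most of this. It had 62.6 and 63.9 CPM at 16 °C for 5 min, 120.8 and 115 at 10 min, 149.5 and 130.1 at 15 min and 249.8 and 284.9 at 30 min. At 37 °C it had 332.8 and 297.0, 342.1 and 245.7, 363.9 and 256.9, and 390 and 270 CPM. Its 16 °C values at 30 min had thus come within the range at 37 °C. Rn45s also rose with time at 16 °C, from 11.8% and 13% to 22.1% and 25.1% of counts, and its part was not tested.

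**Figure D4:**
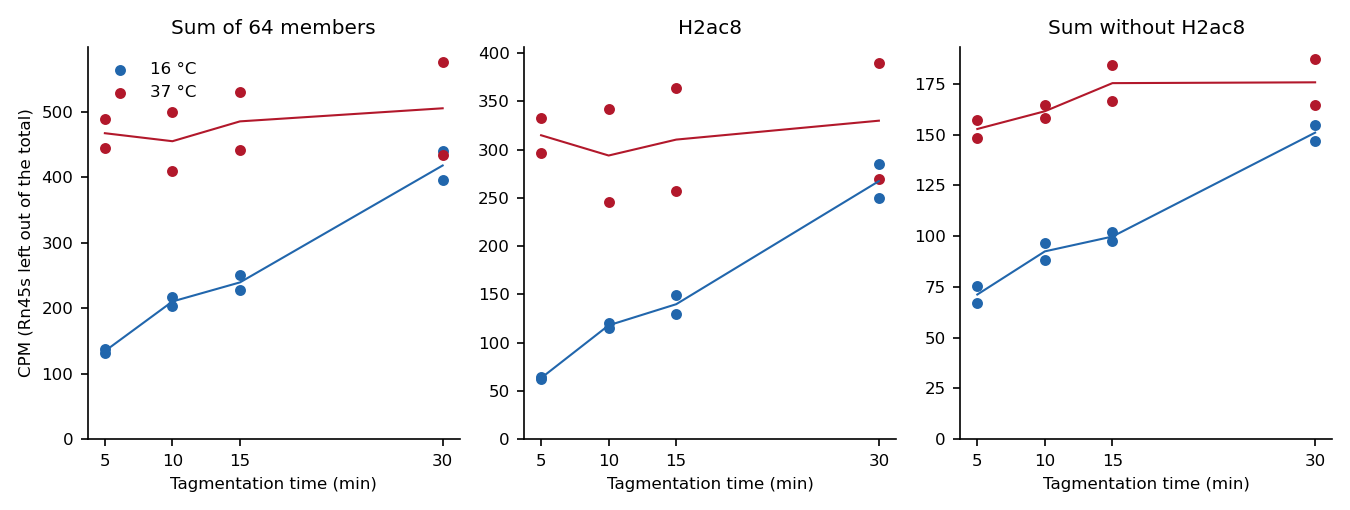
CPM (Rn45s left out) against tagmentation time at 16 and 37 °C for the sum of the 64 members, for H2ac8 and for the sum without H2ac8; points are libraries and lines join the means of 2. At 16 °C H2ac8 rises from 62.6 and 63.9 to 249.8 and 284.9 CPM, and the sum of the other members climbs too, while the 37 °C points overlap across times for the sum and for H2ac8.

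A test of 30 min against 5 min at 16 °C was added after these levels had been seen. Of 28 members tested, 9 rose and none fell by edgeR's quasi-likelihood test with Benjamini-Hochberg adjustment, against 8.16% of all genes higher and 6.48% lower, with median log2 fold change 1.61 in members and -0.02 in all genes. H2ac10 (5.76, adjusted p = 0.0238), Hist1h4n (4.09, SE 1.4, adjusted p = 0.0487), H2bc11 (3.98, SE 0.904, adjusted p = 3.24e-03) and H2ac15 (2.24, SE 0.502, adjusted p = 2.86e-03) had the largest values and H2ac8 the smallest error (2.17, SE 0.173, adjusted p = 3.25e-09). H2ac10 rested on 5 counts against 0, at least 7.62-fold with a floor of 3 counts over the pair, and Hist1h4n was at 0.168 and 0 against 0.504 and 2.36 CPM. H2bc11 had 0 and 3 counts at 5 min. Members this near 0 at 5 min could hardly fall, and the tally comes from the libraries whose levels prompted the test. It therefore does not speak for the members as a set. Leaving out 1 library lowered the count to as few as 4, without the first 16 °C, 30 min library. Hist1h4n was then called in 1 of 8 fits, H2ac10 in 5 of the 6 that tested it, H1f4 in 4 of 8, H2bc11, H1f5 and H3c3 in 7 of 8, and H2ac8 in all 8.

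H1f5 rose too, from 14.2 and 15.7 to 29.2 and 40.2 CPM (1.28), as did H3c3 (2.12), H1f1 (1.71) and H1f4 (0.89), whereas H4c14 (0.55) and H2bc4 (0.98) did not pass. Of the comparators H2ax rose (1.11, SE 0.117, adjusted p = 3.59e-07), while Slbp, H2az1, H3f3a, H3f3b, H1f0 and Pcna did not pass. Of 11 replication-independent histones 3 rose. The test of whether the temperature effect differed between 30 and 5 min, also added, called H2ac8 alone among 28 members, against 2.81% of all genes, 1.63% lower and 1.19% higher. The difference was -2.07 on the log2 scale (SE 0.245, adjusted p = 2.0e-05). The count of members called was thus near the share of all genes. H2ax was lower by the same test (-1.06, adjusted p = 5.26e-04), and with it 3 of 11 replication-independent histones were lower. Slbp, H2az1, H3f3a, H3f3b, H1f0 and Pcna did not pass.

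Less input RNA went with more histone signal, most of all for H1. In the 3 ng libraries the 5 H1 genes summed to 482.3 and 461.3 CPM, against 24.4 and 25.6 CPM with 300 ng, and H4 genes to 108.7 and 127.5 against 9.93 and 12.7 CPM. Of 30 members tested, 25 were higher at 3 ng and none lower by edgeR's quasi-likelihood test with Benjamini-Hochberg adjustment, against 52.6% of all genes called, 26% higher and 26.6% lower, with median log2 fold change 2.60 in members and -0.03 in all genes. All 5 H1 and all 6 H2A genes tested were higher, as were 4 of 6 H2B, 6 of 7 H3 and 4 of 6 H4 genes. These tallies include members that were near 0 at 300 ng and passed the filter through the 3 ng libraries. H2ac10, with 1 and 6 counts at 300 ng, and H4c1, with 2 and 3, were among them. Such members had to differ, so the tallies do not speak for the classes. Without either 300 ng library the count was 15 or 16.

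H1f4 went from 5.26 and 4.55 CPM to 264.4 and 224.2 CPM (5.56, SE 0.235, adjusted p = 4.04e-19) and H4c4 from 0.584 and 2.7 to 79.1 and 94.6 CPM (5.31, SE 0.327, adjusted p = 2.26e-14). H2ac10 (5.62, SE 0.524, adjusted p = 2.63e-10) and H4c1 (4.97, SE 0.662, adjusted p = 2.22e-07) completed the top of the list. H2ac8, already high at 300 ng, rose by less, to 377.7 and 332 CPM (1.82, SE 0.179, adjusted p = 7.79e-10). H2bc4 (-0.48, adjusted p = 0.204) and H4c14 (-0.99, adjusted p = 0.113) did not pass, and both had lower mean CPM at 3 ng.

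The comparators did not share this rise as a group: 3 of 11 replication-independent histones were higher and 5 lower, 9 and 7 of 24 histone mRNA factors, and 15 and 16 of 47 DNA replication genes. H1f0 (1.12), H2az1 (0.77) and H3f3b (0.46) were higher, H2ax was lower (-0.98), and Slbp, H3f3a and Pcna did not pass. Rn45s took 78.5% to 84.6% of counts at 3 ng, and the nuclear RNA Malat1 was at 742.6 and 685.8 CPM against 122.1 and 108.3. Their part in the result was not tested. With Rn45s kept in the total, the members summed to a mean of 212.1 at 3 ng and 158.6 at 300 ng.

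At 30 pg the sums were as high, 1341 and 1104 CPM, but they came from few genes. H2ac8 had 473.8 and 367.9 CPM, and H3 genes summed to 168 CPM in 1 library and 3.09 CPM in the other. With 30 pg in place of 3 ng, 14 members were tested and 3 were called, 2 higher and 1 lower. Across Tn5 amounts, 25 ng/ul gave 65.8 and 144.1 CPM, 50 ng/ul 96.0 and 188.4 CPM and 100 ng/ul 119.9 and 160.9 CPM, and the 3 ranges overlapped.

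Histone signal was sparse in SET-seq of few cells. With 10 cells the sums were 311.9 and 228.4 CPM, and the second of these libraries had counts for only 2 members, whereas 100, 1000 and 10000 cells gave 376 to 481 CPM apart from 359.8 in 1 of the libraries of 10000 cells. H4c14 had no count in either library of 10 cells, 0.46 and 1.54 CPM at 100 cells, 4.12 and 30.7 at 1000 and 52.1 and 36.6 at 10000. With an antibody it was at 0 to 0.193 CPM at 100 cells, 4.94 to 7.30 at 1000 and 13.9 to 23.4 at 10000, so it was higher with more cells in both series. The summed level with an antibody went in the other direction, from 637.6 to 841.7 CPM at 100 cells to 402.4 to 472.7 CPM at 10000. These series are described without a test.

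The antibody itself was compared over 12 libraries, since the RNA is removed before antibody binding. Of 40 members tested, none differed between H3K27me3 and H3K4me3 by edgeR's quasi-likelihood test with Benjamini-Hochberg adjustment, as for all genes (0%). At an unadjusted p under 0.05, edgeR called 1 member and DESeq2 3, of which DESeq2 called 0 after adjustment. The median log2 difference was 0.09. In simulated counts the same fit recovered 59% of genes changed 2-fold and 87% of those changed 4-fold. H2ac10 ranged from 54.4 to 161 CPM in these libraries, above the 16.1 and 20.9 CPM of SET-seq of 10000 cells without an antibody.

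The Aebp2 clones were compared with the H3K27me3 SET-seq libraries of 10000 unmodified cells. Aebp2 itself was at 15.7 and 15.0 CPM in KO1 and 49.7 and 30.3 CPM in KO2 against 65.5 and 76.0 CPM in wild type, and it differed between the clones (-1.46 on the log2 scale for KO1 against KO2, SE 0.337, adjusted p = 5.61e-03). Histone genes summed to 625.9 and 551.8 CPM in KO1, 567.6 and 461.7 CPM in KO2 and 472.7 and 466.3 CPM in wild type, so KO2 overlapped wild type and KO1 did not. Of 16 members tested, 6 were higher and 2 lower by edgeR's quasi-likelihood test with Benjamini-Hochberg adjustment, against 27.8% and 29.5% of all genes, a share of 57.3% called in all.

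In either direction 8 of the 16 members were called, a share below the 57.3% of all genes. The count of calls thus did not set the members apart from other genes. Among the 6 higher members 4 were linker histone genes, of 5 tested, and they are described gene by gene. H1f3 had 22.6, 19.3, 30.8 and 31.1 CPM in the KO libraries and 7.27 and 10.2 CPM in wild type (1.60, SE 0.325, adjusted p = 1.84e-04). H1f1 had 26.5, 17.1, 15.9 and 8.90 CPM against 4.85 and 7.21 CPM (1.48, SE 0.418, adjusted p = 4.01e-03) and H1f2 had 56.9, 47.1, 26.8 and 40.03 CPM against 23.4 and 24.6 CPM (0.93, SE 0.237, adjusted p = 1.69e-03). In all 3 genes every KO library was above both wild-type libraries. H1f1 and H1f3 entered the test through the KO libraries, where they were high, so the filter favoured their calls. The tally of linker histone genes therefore does not speak for that class. H1f5 (0.89, SE 0.360, adjusted p = 0.0376), H2bc4 (0.85, SE 0.237, adjusted p = 3.89e-03) and H2ac8 (0.38, SE 0.157, adjusted p = 0.0417) were also higher, while H1f4, with 21.9 to 42.8 CPM against 28.3 and 37.8 CPM, was at -0.04 (adjusted p = 0.905). The labels give no number of cells for the KO libraries, and its part was not tested. In unmodified cells with H3K27me3, mean H1 sums were 162.7 CPM at 100 cells, 157.1 at 1000 and 81.7 at 10000. KO1 and KO2 had 143.1 and 123.3 CPM. At 100 and 1000 unmodified cells H1f3 averaged 26.5 and 16.9 CPM, H1f1 12.2 and 12.0, and H1f2 23.4 and 23.3.

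H4c9 was lower, with 0.981, 3.21, 3.98 and 2.67 CPM against 11.3 and 16.2 CPM (-2.28, SE 0.514, adjusted p = 5.61e-04), and so was H2ac15, with 2.94, 9.62, 2.98 and 2.67 CPM against 23.4 and 13.2 CPM (-1.88, SE 0.484, adjusted p = 1.88e-03). H4c9 and H2ac15 entered the test through the wild-type libraries, where they were high, so the filter favoured their calls. The calls of H1f5 and H2ac8 were kept in 2 of 6 fits that left out 1 library, those of H1f1, H4c9 and H2ac15 in 5 of 6. Without either wild-type library 5 members were called. With all 6 H3K27me3 libraries as wild type, H1f5 was at -0.34 and H2ac8 at -0.16, neither past the test.

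Markers of other cell types moved in the same contrast. The stem cell list summed to 2095 to 2795 CPM in KO and 3950 and 3951 CPM in wild type, with 4 of 8 lower and none higher. Of the neural list 1 of 3 was tested and higher (2.04), with Nes at 82.4, 99.5, 15.9 and 35.6 CPM in KO against 13.7 and 12.6, and it also differed between the clones (1.69). Of the mesoderm list 1 of 3 was tested and higher (1.66), with Eomes at 28.9 to 37.8 CPM against 12.1 and 11.1. The 1 fibroblast marker tested was not called, and no primitive endoderm marker was tested. Their part in the result was not tested.

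Rn45s took 48.8% to 56.7% of counts in the KO libraries against 15.2% to 34.2% in the antibody libraries of unmodified cells, and its part was not tested. The replication-independent histones were higher in 2 and lower in 6 of 11, with H3f3b at -1.24, H2az1 at -1.07 and H3f3a at -0.67, and H2ax at 0.49, all past the test, while H1f0 and Pcna did not pass. Slbp was at 0.42 (adjusted p = 0.033), histone mRNA factors were higher in 11 and lower in 4 of 23 tested, and DNA replication genes higher in 19 and lower in 10 of 46. Between the clones none of the 16 members was called by edgeR (2 at an unadjusted p under 0.05) or by DESeq2 (0), against 11.8% of all genes (5.88% higher and 5.89% lower), and the fit recovered 51% of simulated 2-fold and 84% of 4-fold changes. By the study's rule, an unadjusted p under 0.05 with an absolute log2 fold change above 1, 2 members differed between the clones against 6.97% of all genes, and 5 members between KO and wild type against 30%. In the contrast of the clones 17 of 46 DNA replication genes were lower in KO1 and none higher.

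In the single-cell experiments, cells divided next to a Wnt3a-coated bead, and each daughter was kept as proximal or distal to the bead according to the study's own list of cells. The tables held 752 cells, of which 545 had over 1000 and under 5000 genes. The barcodes are well labels reused between plates: 96 strings served all cells and 736 cells shared a string with another. In total 86.6% of the passing cells had at least 1 count of a member, 80.6% of the H3K27me3 cells and 96.2% of the H3K4me3 cells, at median depths of 198000 and 93760 counts outside Rn45s, so the deeper set had the lower share. Counts here are reads and not molecules.

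The gene seen most often was not the leading one of bulk. H2bc6 was found in 56.7% of cells, H2ac4 in 28.6%, H2ac8 in 21.8% and Hist1h2ao in 21.5%. Their longest A runs were 11, 4, 8 and 12 bases in that order. Hist1h2ao had 1 count in all 54 bulk libraries, where 904 of its 1104 exon bases overlapped other genes and reads naming several genes were dropped. Single-cell counting also took introns, so levels are not comparable between the bulk and single-cell tables. Summed over the passing cells, members had 207.7 CPM in the H3K27me3 set and 939 CPM in the H3K4me3 set, and those sets were separate experiments.

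Proximal and distal sums could be formed for 14 experiments. The summed level was higher in proximal cells in 9 of 14, with median log2 ratio 0.89, that is in 7 of 9 H3K27me3 experiments (median 1.10) and in 2 of 5 H3K4me3 experiments (median -0.099). Fitted by mark, no member was called in either, and the member medians were 2.13 over 3 tested and -0.51 over 13 tested. H2ac8 held 61.4 of 69.98 CPM in the proximal cells of H3K27me3 experiment 8 and 172.8 of 191 CPM in those of experiment 9. Among passing H3K27me3 cells the member counts had a median of 3 and a maximum of 3673 per cell. The 1339 counts of Hist1h4m there came from 5 cells. A few cells can therefore weigh heavily in a sum and in its direction. Levels differed widely both between and within experiments. Distal cells ran from 8.71 CPM in H3K27me3 experiment 9 to 2316 CPM in H3K4me3 experiment 5. Proximal cells ran from 17.45 CPM in H3K27me3 experiment 1 to 1791 CPM in H3K4me3 experiment 5. The largest log2 ratio within 1 experiment was 4.46, in H3K27me3 experiment 9, with 191 CPM in proximal and 8.71 CPM in distal cells. With the experiment as a block, edgeR's quasi-likelihood test called none of 7 members tested, as for all genes (0%). H2ac8, at 2.27 (SE 1.05), was the 1 member under an unadjusted p of 0.05, and DESeq2 also called none after adjustment and 1 before. The same fit recovered 0% of genes changed 2-fold and 1% of those changed 4-fold in simulated counts, so a difference of that size would not have been detectable.

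**Figure D5:**
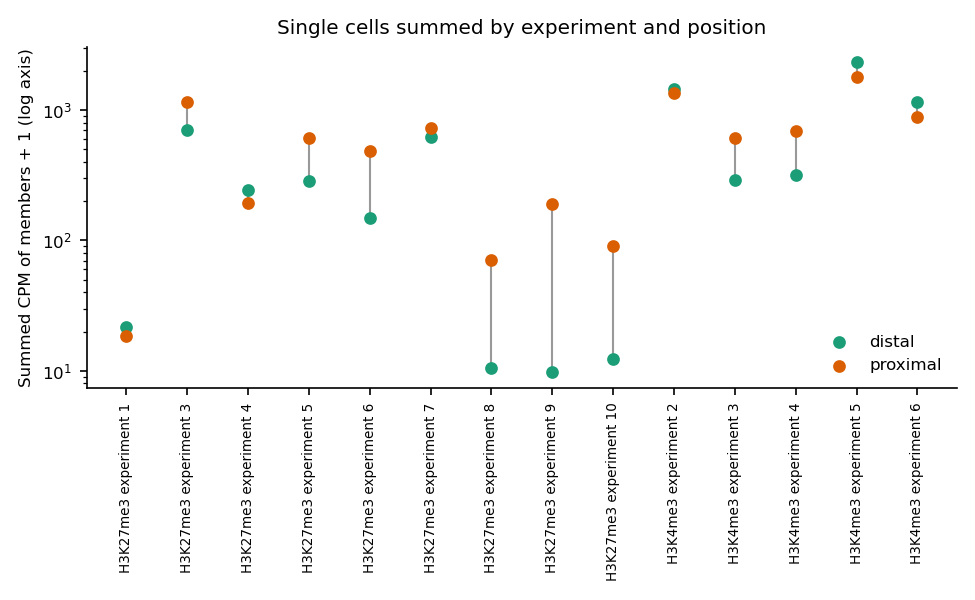
Summed CPM of the members plus 1 (log axis) in distal and proximal cells of each of the 14 single-cell experiments, with a line joining the pair. Proximal is higher in 9 (7 of 9 H3K27me3 and 2 of 5 H3K4me3 experiments), and the experiments range from 8.71 to 2316 CPM.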

How the data were processed

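The bulk files held raw counts per gene that the authors made from trimmed paired reads (Trim Galore 0.6.4) aligned to mm9 with STAR 2.5.4b and counted as read pairs over exons, without strand, multi-mapping reads or reads naming several genes. The deposited headers name featureCounts 2.0.0 in 50 files and 2.0.1 in 4. The deposited single-cell tables also held counts, of reads over exons and introns. Groups came from the labels, and each cell's position from the study's list of cells.

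Rn45s was removed. Members were tested with all other genes in edgeR 4.0.16 (R 4.3.3): filterByExpr, TMM scaling, glmQLFit and glmQLFTest, with Benjamini-Hochberg adjusted p under 0.05 called. The SE is the absolute log2 fold change over the square root of F. The ligation and SET-seq contrasts came from 1 fit of 8 libraries, both KO contrasts from 1 fit of 6, and temperature was fitted with time as a factor. For single cells, counts of passing cells were summed per experiment and position (at least 3 cells). No doublet caller was run. DESeq2 1.42.0, other scalings, filters, denominators and libraries were alternatives. Every test except the 2 added ones was tried on simulated counts with 200 changed genes. Genes named are the 10 members highest in mean CPM per kb, the leading member of each class, all called members where 6 or fewer in a direction and otherwise the 4 largest, and 9 comparators and checks. A floor is 3 counts over a group and covers counting error only. The members, lists and tests were chosen with earlier results of these data known, and both tests of reaction time were added after seeing the levels. Sequence was read from the genome of the files' build.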

Additional observations from a re-analysis of the deposited data

Results flagged for a closer look

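The temperature effect on H2ac8 differed between reaction times: the log2 difference between 37 °C and 16 °C at 30 min less that at 5 min was -2.07 (SE 0.245, adjusted p = 2.0e-05, edgeR's quasi-likelihood test with Benjamini-Hochberg adjustment). It was the difference between the contrasts at the 2 times that picked this gene out, in a comparison added after seeing the data. It was called in each of the 8 fits that left out 1 library. With 2 libraries a group, no library could be tested as lying apart from its group. H2ax, a replication-independent histone, was lower by the same test as well (-1.06, adjusted p = 5.26e-04).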

How the results depend on the processing

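Leaving out 1 library changed the count of members called to 15-21 for ligation against in vitro (19 with all), 19-32 for SET-seq against in vitro (28), 32-39 for SET-seq against ligation (33), 10-15 for temperature (12), 15-26 for 3 ng against 300 ng (25), 5-10 for KO against wild type (8), 4-9 for time at 16 °C (9) and 1-2 for the temperature effect by time (1), and left 0 for the antibodies, for KO1 against KO2 and for proximal against distal. DESeq2 gave 25, 20, 33, 14 and 21 calls in the first 5 comparisons and 6 for KO against wild type. Settings that moved a count by over 1.5 times were the 5 min libraries alone for temperature (6), 30 pg in place of 3 ng (3), the study's rule of unadjusted p and fold for KO against wild type (5, with 30% of all genes) and for KO1 against KO2 (2, with 6.97%), DESeq2 for time at 16 °C (4), and DESeq2 size factors, no filter or the replicate block for the temperature effect by time (2 each). Without a filter 44 members were called in SET-seq against ligation. Replicate numbers did not pair the libraries: the correlations of deviations ran from -0.24 to 0.41 over all comparisons, and the numbers are shared names only. The replicate block gave 19, 26, 33, 14 and 25 calls in the first 5 comparisons, 6 for KO against wild type, 10 for time at 16 °C and 0 for the antibodies and KO1 against KO2. The single-cell test has the experiment as a block, and without it the count was 0. Mean summed levels moved with the denominator: ligation 21.8 CPM after TMM scaling, 37 °C for 5 min 306.8 with Rn45s in the total, 300 ng 158.6 with Rn45s and 221.8 after TMM, SET-seq of 10000 cells 336.1 with Rn45s, and 3 ng 212.1 with Rn45s and 1176 after TMM.

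Results called in at least 1 setting whose direction reversed were those of H3c3 (-0.15) and Pcna (-0.27) in SET-seq against in vitro and H3f3b (1.05) and Hprt (0.87) in SET-seq against ligation, all with antibody libraries in place of those without; Aebp2 (-0.28) with 30 pg; H2az1 (0.12) and H3f3a (0.22) in KO against wild type with SET-seq of 10000 cells as wild type; and H1f5 (-0.34), H2ac8 (-0.16), H4c14 (3.19, adjusted p = 5.67e-05) and Slbp (-0.087) with all 6 H3K27me3 libraries as wild type. The causes were not tested. Over all alternatives the named members kept the side of the threshold 1644 times, lost the call 73 times, gained it 18 times and changed sign with a call 4 times. A value with no call before and after was counted as kept whatever its sign: leaving out 1 library changed the sign of 13 of 112 named results, none of them called with all libraries. Library totals without TMM moved the share of higher among called genes of all kinds from 55.7% to 37% for time at 16 °C, from 49.4% to 37.5% for SET-seq against ligation and from 50.0% to 69.6% for KO1 against KO2, and the median of all genes to 0.41 for ligation against in vitro, -0.35 for SET-seq against ligation, -0.17 for KO against wild type and -0.11 for time at 16 °C.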
